A study of Homo sapiens with 6 samples.

Results

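The plasminogen activation system was examined in MDA-MB-231 cells with and without knockdown of PELP1 through 6 genes, chosen by name: PLAU, PLAT, PLAUR, SERPINE2, SERPINB2 and HTRA1. All 6 of these symbols are among the 23228 in the count tables, and all 6 had enough reads to be tested, as did 12796 genes in total. Plasmin is a broad serine protease that dissolves fibrin and cuts extracellular matrix proteins. It is made from circulating plasminogen by an activator, either urokinase (uPA, encoded by PLAU), which works at the cell surface bound to its receptor (uPAR, encoded by PLAUR), or tissue-type plasminogen activator (tPA, encoded by PLAT). Serpins stop the activators by trapping them in a covalent complex. Of the serpins considered, SERPINE2 encodes protease nexin-1, a secreted inhibitor of uPA, tPA, plasmin and thrombin, and SERPINB2 encodes plasminogen activator inhibitor type 2, much of which stays inside the cell. HTRA1 encodes a secreted serine protease of another family that cuts matrix proteins, and it needs no plasminogen. Urokinase and its receptor are known for their part in invasion by breast cancer cells.

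MDA-MB-231 is a human triple negative breast cancer (TNBC) cell line. mRNA was sequenced from 3 replicates of cells carrying a non-targeted control shRNA and 3 replicates of PELP1-KD cells, which carry an shRNA against PELP1. Both groups were stably selected with puromycin and grown in RPMI medium with serum, the knockdown came from a single shRNA delivered by lentivirus, and the sources do not say that the replicates of a group were selected separately. The p-values therefore measure the spread between these samples, which may be technical.

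Between 17304864 and 23132102 reads per replicate fell on genes, and 3 counts, taken as the floor of detection, correspond to between 0.13 and 0.173 CPM (read count scaled to library size, as counts per 1000000 reads). PELP1 itself decreased from a control mean of 57.8 ± 2.14 CPM (SD, n = 3) to 29.6 ± 0.876 CPM (SD, n = 3) after knockdown, a log2 fold change (log2FC) of -0.97 with a standard error of 0.055. Mesenchymal markers of the line were abundant. In control cells VIM, CD44, CAV1, AXL and MSN summed to between 5941 and 6025 CPM, and in PELP1-KD cells to between 5010 and 5074 CPM. By the rule given below, 4 of these 5 were called lower, as were 24.2% of all tested genes. ESR1, PGR and CDH1 had at most 4 reads in any replicate, whereas ERBB2 and EPCAM were detected and neither was called changed. Blood markers (PTPRC, CD3E and CD14) summed to at most 0.75 CPM, and PTPRC had no read. Endothelial markers (PECAM1, VWF and CDH5) summed to between 0.296 and 0.676 CPM in control cells and between 0.923 and 1.17 CPM in PELP1-KD cells. Of these VWF, at 0 to 20 reads, was called higher (log2FC 2.56). Its control mean, 0.108 CPM, lay below the floor, and it had enough reads to be tested only through PELP1-KD cells (0.744 CPM). The size of its log2FC is thus uncertain, between 2.04 and 4.42 when a replicate was dropped. Whether these marker shifts have a part in the values below was not tested. Control replicate 1 stood further from control replicates 2 and 3 (chi-square per degree of freedom 3.87 and 4.11) than these did from each other (1.47). Likewise, PELP1-KD replicate 2 stood further from PELP1-KD replicates 1 and 3 (2.75 and 2.71) than these did from each other (1.51).

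In PELP1-KD cells, 4 of the 6 genes were downregulated (HTRA1, SERPINE2, PLAT and PLAU), SERPINB2 was upregulated, and PLAUR did not pass the test. In bulk RNA, fewer cells with a transcript and less of it per cell cannot be told apart. A gene was called when its adjusted p-value (quasi-likelihood test of edgeR, adjusted by Benjamini-Hochberg) over all 12796 tested genes was below 0.05. Such calls were common in this comparison: 46.9% of all tested genes were called, 24.2% as lower and 22.7% as higher. With library totals alone as the scaling, the 3103 lower and 2904 higher calls became 2418 and 3817. The 3 replicates of a group did not overlap those of the other group in any of the 6 genes, as in 55% of all tested genes. Only HTRA1 was also past a log2FC of 1 in size, which 3.24% of all tested genes were. The sizes ranged from a 4.09-fold fall in HTRA1 to a rise of 9.02% in SERPINB2. The median log2FC of the 6 genes was -0.32 against 0.0014 for all tested genes. The 6 genes were chosen with earlier results of these data known, so this difference in medians is a description and no test. By a two-sided exact permutation test on log2 CPM, each of the 6 genes had p = 0.1, the smallest that 3 replicates against 3 allow.

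**Figure D1:**
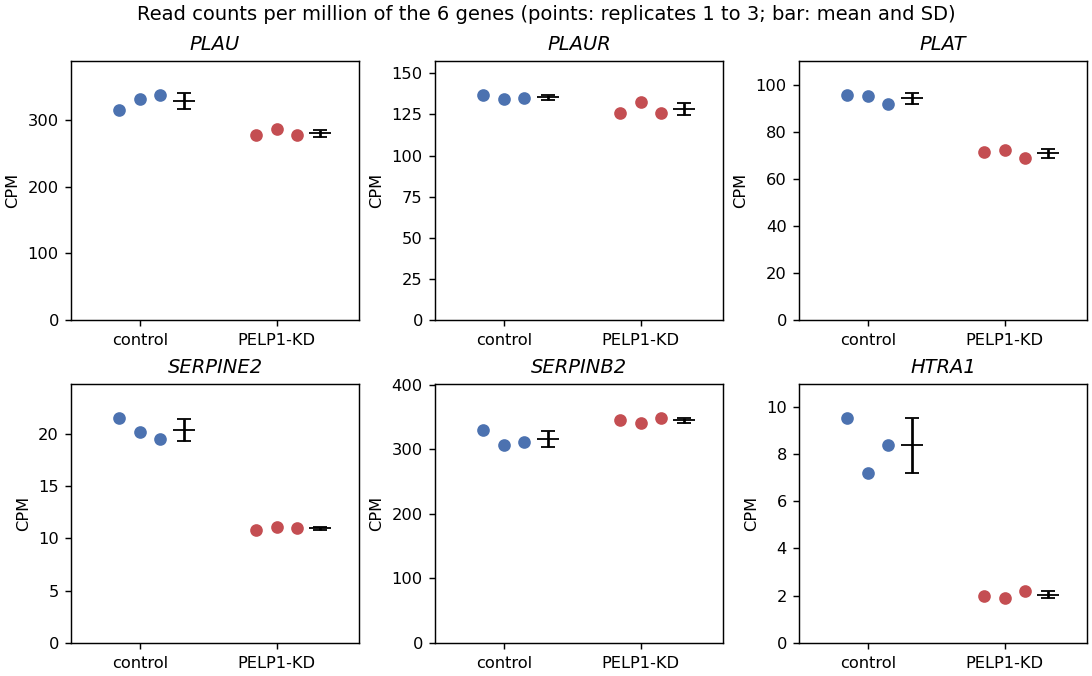
Expression of the 6 genes in each replicate, in CPM (vertical axes from 0); blue points are control replicates 1 to 3, red points PELP1-KD replicates 1 to 3, and the black bar is the mean with its SD. HTRA1 (7.17 to 9.52 CPM in control cells, 1.92 to 2.21 in PELP1-KD cells) and SERPINE2 (19.5 to 21.5 and 10.8 to 11.1 CPM) show the widest gaps between the groups, while PLAUR and SERPINB2 lie close together.

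Among the activators, PLAU was the more abundant per exon length and fell the less of the pair. PLAU lies on chromosome 10 of GRCh38, from 73909177 to 73917497 on the plus strand in the GENCODE annotation, and its longest coding transcript has 10 exons. Control replicates 1 to 3 gave 5343, 7546 and 6001 reads on PLAU, and PELP1-KD replicates 1 to 3 gave 5410, 6116 and 6528. Scaled to library size these were 315.9, 332.1 and 338.0 CPM in control cells and 277.5, 286.7 and 277.4 CPM in PELP1-KD cells. All PELP1-KD replicates were thus below all control replicates, the nearest pair being control replicate 1 and PELP1-KD replicate 2. Expression decreased by 14.6%, from a control mean of 329 ± 11.4 CPM (SD, n = 3) to 281 ± 5.33 CPM (SD, n = 3) after knockdown, with log2FC = -0.23 ± 0.033 (SE) and an edgeR adjusted p-value of 9.4e-06. Exons of PLAU overlap those of C10orf55, which is annotated on the opposite strand. The strand setting of the counting is not given in the sources used here, so reads in the shared exons may have been left out of PLAU, and C10orf55 itself had 21 to 36 reads in each replicate.

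PLAT, which encodes tPA, decreased more in proportion. It lies on chromosome 8 of GRCh38, from 42175233 to 42207724 on the minus strand, with 14 exons in its longest coding transcript. PLAT collected 1618, 2163 and 1626 reads without knockdown and 1394, 1542 and 1619 with it. In CPM, PLAT was at 95.7, 95.2 and 91.6 in control cells and at 71.5, 72.3 and 68.8 in PELP1-KD cells. The spread within a group, at most 2.59% of the mean, was close to the 2.36% to 2.57% that counting error alone would give, and the distance between the groups was several times larger. PLAT decreased by 24.7%, with log2FC = -0.41 ± 0.044 (SE) and an edgeR adjusted p-value of 1.9e-07. Because PLAT fell further than PLAU, the ratio of PLAU to PLAT, computed per exon length, rose. It was 7.84 ± 0.436 (SD, n = 3) in control cells and 8.88 ± 0.17 (SD, n = 3) in PELP1-KD cells. Its 2 groups of replicates did not overlap, as in 55% of all tested genes taken singly.

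PLAUR, the receptor that holds uPA at the cell surface, had the smallest difference of the 6 genes. The gene lies on chromosome 19 of GRCh38, from 43646095 to 43670547 on the minus strand. Reads on PLAUR came to 2316, 3051 and 2398 without knockdown and to 2452, 2824 and 2968 with it. The corresponding values were 136.9, 134.3 and 135.1 CPM in control cells and 125.8, 132.4 and 126.1 CPM in PELP1-KD cells. PELP1-KD replicate 2 came close to the control replicates, while replicates 1 and 3 were lower. PLAUR had log2FC = -0.08 ± 0.038 (SE) and an edgeR adjusted p-value of 0.091, so that 2 standard errors on either side reach from -0.16 to -0.0038. Without PELP1-KD replicate 2, which stood apart from the other PELP1-KD replicates, the log2FC was -0.10 and PLAUR was called lower (edgeR adjusted p-value 0.043). With library totals alone the log2FC was -0.03 (edgeR adjusted p-value 0.52). The ratio of PLAU to PLAUR moved from 3.67 ± 0.159 (SD, n = 3) in control cells to 3.31 ± 0.0329 (SD, n = 3) in PELP1-KD cells.

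The serpins SERPINE2 and SERPINB2 moved in opposite directions. SERPINE2, on chromosome 2 of GRCh38 from 223975112 to 224039319 on the minus strand, gave 364, 458 and 346 reads without knockdown and 211, 237 and 259 with it. Its CPM values were 21.5, 20.2 and 19.5 in control cells and 10.8, 11.1 and 11.0 in PELP1-KD cells. Each PELP1-KD replicate was thus well below each control replicate, and the PELP1-KD replicates lay closer together (coefficient of variation 1.31%) than counting error alone would give (6.51%). Expression decreased by 46.1%, from a control mean of 20.4 ± 1.04 CPM (SD, n = 3) to 11.0 ± 0.144 CPM (SD, n = 3) after knockdown, with log2FC = -0.89 ± 0.079 (SE) and an edgeR adjusted p-value of 1.2e-08. With 13 other settings of the analysis the log2FC of SERPINE2 stayed between -0.92 and -0.84.

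SERPINB2 was the one gene of the 6 to rise. It lies on chromosome 18 of GRCh38, from 63871692 to 63903890 on the plus strand, among other genes of the SERPINB clade. SERPINB2 gave 5594, 6987 and 5542 reads without knockdown and 6750, 7274 and 8210 with it. This came to 330.8, 307.5 and 312.1 CPM in control cells and 346.3, 341.0 and 348.8 CPM in PELP1-KD cells. The groups did not overlap, but control replicate 1, the replicate that stood apart from the other controls, was nearly as high as PELP1-KD replicate 2. Expression rose from a control mean of 317 ± 12.3 CPM (SD, n = 3) to 345 ± 4.01 CPM (SD, n = 3) after knockdown, with log2FC = 0.13 ± 0.033 (SE) and an edgeR adjusted p-value of 0.0035. The log2FC was 0.16 without control replicate 1, 0.10 without control replicate 2 (adjusted p-value 0.041) and 0.17 with library totals alone. Exons of SERPINB2 overlap those annotated for SERPINB10 on the same strand, and reads in the overlap may have been counted on neither gene; SERPINB10 had at most 2 reads in a replicate.

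HTRA1 showed the largest change of the 6 genes. It lies on chromosome 10 of GRCh38, from 122458551 to 122514908 on the plus strand, with 9 exons in its longest coding transcript. HTRA1 reads were few, 161, 163 and 149 without knockdown and 39, 41 and 52 with it. In CPM these were 9.52, 7.17 and 8.39 in control cells and 2.00, 1.92 and 2.21 in PELP1-KD cells. Even the lowest control replicate was more than 3 times the highest PELP1-KD replicate, and all values were far above the floor of detection. Expression decreased by 75.6%, from a control mean of 8.36 ± 1.17 CPM (SD, n = 3) to 2.04 ± 0.149 CPM (SD, n = 3) after knockdown, which is 4.09-fold lower, with log2FC = -2.01 ± 0.15 (SE) and an edgeR adjusted p-value of 7.9e-10. HTRA1 also varied most between control replicates, with a coefficient of variation of 14.0% where counting error alone would give 7.96%. Exons of HTRA1 overlap those of an annotated antisense gene, and reads there cannot be told apart without the strand setting. Leaving out any replicate kept the log2FC between -2.12 and -1.91.

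**Figure D2:**
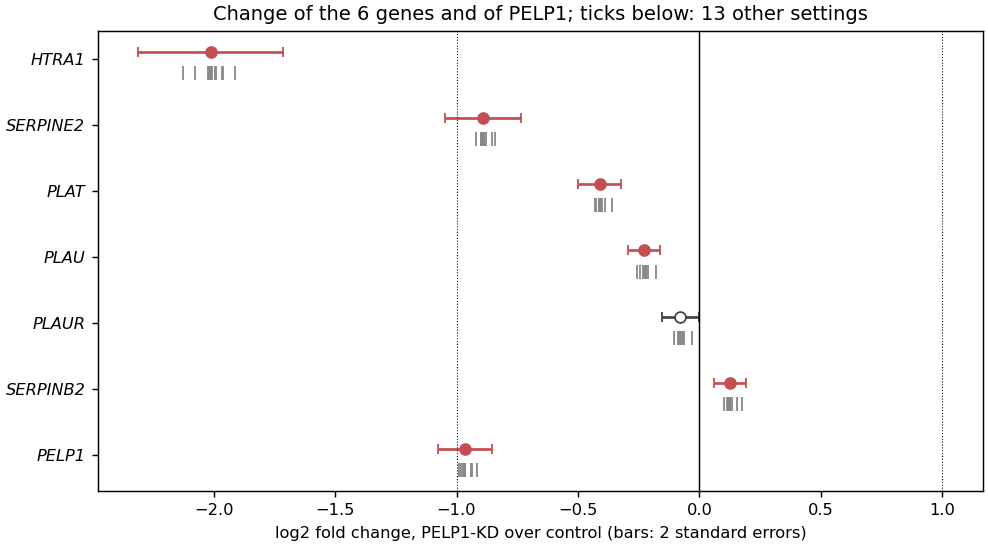
The log2 fold change of each of the 6 genes and of PELP1 (horizontal axis, PELP1-KD over control), with bars of 2 standard errors; filled red points have an adjusted p-value below 0.05, the open point does not, the dotted lines mark 1 in size, and the grey ticks are the values under 13 other settings. HTRA1 lies at -2.01, SERPINE2 at -0.89 and PLAT at -0.41, whereas PLAUR at -0.08 and SERPINB2 at 0.13 lie near 0.

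The proportions of the 6 genes to each other changed with these moves. Per exon length, the ratio of SERPINB2 to SERPINE2 was 50.3 ± 1.33 (SD, n = 3) in control cells and 102 ± 2.2 (SD, n = 3) in PELP1-KD cells, 2.02 times the control ratio. The ratio of SERPINB2 to PLAU was 1.04 ± 0.0758 (SD, n = 3) and 1.32 ± 0.0396 (SD, n = 3), and that of SERPINE2 to PLAT was 0.161 ± 0.00547 (SD, n = 3) and 0.115 ± 0.00332 (SD, n = 3). The ratio of PLAU to HTRA1 moved most, from 30.8 ± 5.07 (SD, n = 3) to 106 ± 9.15 (SD, n = 3). None of these 4 ratios overlapped between the groups, and neither did 55% of all tested genes taken singly. The share of other gene pairs that do not overlap was not computed, and these pairs join genes that moved by different amounts. The ratios compare genes within the same library, so that library scaling does not enter. Their levels depend on the gene lengths used, their change between groups does not. No test was run on the ratios, since the genes were chosen with results known.

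Expression levels were compared between genes as RPKM, the CPM divided by the exon length in kilobases, with exon lengths from GENCODE. In control cells SERPINB2 was at 115 RPKM ± 4.49 (SD, n = 3) and PLAU at 111 RPKM ± 3.87 (SD, n = 3). With this length they do not differ beyond their spread. PLAUR followed at 30.4 RPKM ± 0.31 (SD, n = 3) and PLAT at 14.2 RPKM ± 0.338 (SD, n = 3). HTRA1, at 3.67 RPKM ± 0.515 (SD, n = 3), and SERPINE2, at 2.29 RPKM ± 0.117 (SD, n = 3), had the lowest levels. In PELP1-KD cells SERPINB2 stood above PLAU by more than their spread, at 126 RPKM ± 1.46 (SD, n = 3) against 95.1 RPKM ± 1.81 (SD, n = 3). HTRA1 fell below SERPINE2, at 0.897 RPKM ± 0.0652 (SD, n = 3) against 1.23 RPKM ± 0.0162 (SD, n = 3). The order of neighbours depends in part on the length chosen, and so does the gap between SERPINB2 and PLAU in control cells. With the longest coding transcript of each gene, added after the data were seen, the control levels were 147 RPKM for SERPINB2, 124 for PLAU, 84.1 for PLAUR, 34.8 for PLAT, 7.94 for SERPINE2 and 3.94 for HTRA1, which puts SERPINE2 above HTRA1 in both groups. The 2 genes with the largest falls were thus the 2 of lowest level under either length.

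**Figure D3:**
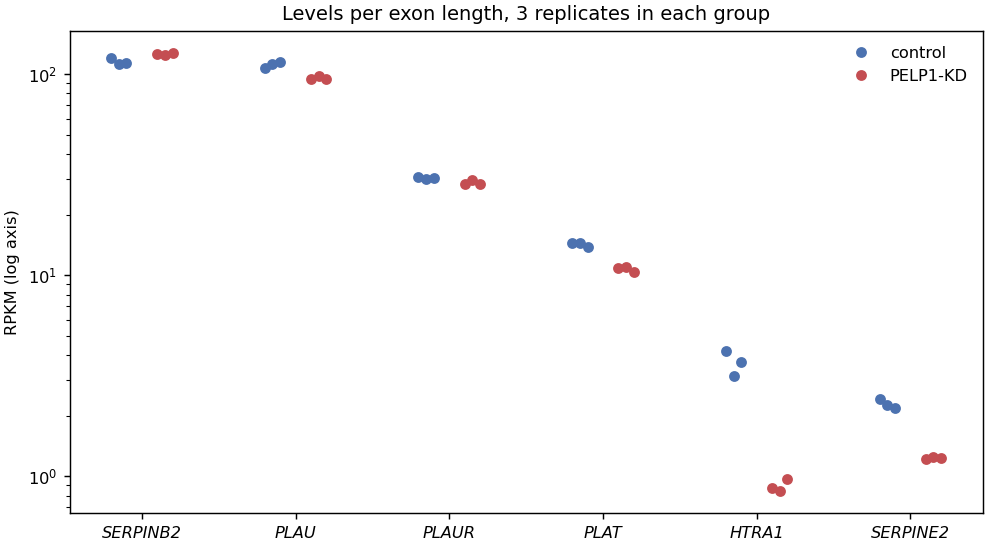
Level of each of the 6 genes per exon length, in RPKM on a log axis, with 3 control replicates (blue) and 3 PELP1-KD replicates (red) shown as points. SERPINB2 and PLAU lie between 95.1 and 126 by their means, PLAUR at 30.4 and PLAT at 14.2 in control cells, and HTRA1 passes from above SERPINE2 in control cells to below it in PELP1-KD cells.

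Sequence upstream of the transcription start was available for 5 of the 6 genes, PLAU, PLAUR, SERPINE2, SERPINB2 and HTRA1, with 7 starts in the RefSeq table on GRCh38.p14. Short motifs were searched on both strands from 250 bases before to 50 bases after each start: AP-1 (TGAGTCA or TGACTCA, which are reverse complements of each other), TEAD (GGAATG), E-box (CACGTG), GC box (GGGCGG) and TATA box (TATAAA). The 200 bases before the start are printed for HTRA1 and SERPINE2, which fell most, and for SERPINB2, which rose, with the motifs found in capitals.
HTRA1, chr10:122461353-122461552, plus strand: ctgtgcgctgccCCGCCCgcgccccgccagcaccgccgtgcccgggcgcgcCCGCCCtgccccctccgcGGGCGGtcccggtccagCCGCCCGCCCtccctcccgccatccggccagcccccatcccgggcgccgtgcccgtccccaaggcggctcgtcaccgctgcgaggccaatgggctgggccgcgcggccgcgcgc
SERPINE2, start with the E-box, chr2:224031479-224031678, minus strand: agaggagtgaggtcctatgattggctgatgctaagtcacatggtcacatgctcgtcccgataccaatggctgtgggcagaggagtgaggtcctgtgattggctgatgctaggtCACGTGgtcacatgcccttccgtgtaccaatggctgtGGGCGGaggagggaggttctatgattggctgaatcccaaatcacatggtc
SERPINB2, chr18:63887505-63887704, plus strand: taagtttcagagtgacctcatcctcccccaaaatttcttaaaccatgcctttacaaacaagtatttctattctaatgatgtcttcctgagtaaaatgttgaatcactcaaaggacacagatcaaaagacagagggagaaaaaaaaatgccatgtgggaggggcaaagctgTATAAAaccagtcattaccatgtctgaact

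These upstream regions differ in base composition and in the motifs they hold. The HTRA1 window is 80.7% G and C, against a median of 58.7% over all promoters in the table, and holds GC boxes at 5 positions, some of them overlapping. The SERPINE2 window shown is 54.0% G and C, with an E-box that begins 87 bases and a GC box that begins 50 bases before the start, and the other SERPINE2 start, at 73.7% G and C, holds GC boxes and no E-box. The SERPINB2 window is 39.0% G and C and holds a TATA box 30 bases before the start. An E-box is a sequence that c-Myc and its partner Max bind. It was found in 7.26% of the 35116 windows in the table, a GC box in 45.0% and a TATA box in 11.5%. Of the other genes, PLAUR has an AP-1 motif 186 bases before its start, which 4.95% of all windows hold, and 1 of the 2 PLAU starts has GC boxes, the nearest beginning 40 bases before it. No TEAD motif was found in any of the 7 windows, against 14.0% of all windows. A match describes the letters alone, and binding was not measured. Which start of SERPINE2 or PLAU these cells use was not measured either. The SERPINE2 start shown, chosen for its E-box, lies inside the annotated gene. The window of the other start, chr2:224038641-224038840, lies nearer the upstream end of the gene at 224039319.

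The nearest tested gene on either side of each of the 6 genes was also examined. Around HTRA1 both were lower in PELP1-KD cells: PLEKHA1, 15.9 kb away, had log2FC = -0.64 ± 0.1 (SE) and an edgeR adjusted p-value of 2.5e-05, and DMBT1, 45.8 kb away, had log2FC = -1.12 ± 0.19 (SE) and an edgeR adjusted p-value of 5.4e-05. DMBT1 was a gene of low level, with a mean of 2.87 CPM. PLAT is flanked by AP3M2, which had a log2FC of 0.0045, and by IKBKB, with a log2FC of -0.36 (adjusted p-value 2.7e-05). VCL beside PLAU, SMG9 beside PLAUR and CUL3, 431 kb from SERPINE2, had log2FC values of -0.11, -0.14 and -0.16 and were called lower. VCL lost its call with library totals alone (adjusted p-value 0.077), and SMG9 did so too (0.096) as well as without PELP1-KD replicate 1 (0.082) or PELP1-KD replicate 3 (0.057). The neighbours of SERPINB2, SERPINB7 and HMSD, were not called changed, and neither was MRPL44 beside SERPINE2, except with library totals alone (adjusted p-value 0.024) and without control replicate 1 (0.0036). CADM4, 6.26 kb from PLAUR, was higher with a log2FC of 0.68 (adjusted p-value 2.1e-07). CAMK2G, 34.6 kb from PLAU, had a log2FC of 0.085 and was not called (edgeR adjusted p-value 0.15), except with library totals alone (0.024). HTRA1 was the single gene of the 6 whose flanking genes on both sides were called in its own direction. Of all tested genes, 24.2% were called lower and 22.7% higher. The flanking genes were looked up after the values were seen, and a regional effect was not tested.

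Beside 24.2% of all tested genes called lower and 22.7% called higher, other genes of the system were followed through 4 lists. The first held plasminogen, its cell surface receptors, the clearance receptors for activators bound to inhibitors, and related partners, 14 genes of which 9 were tested, and 3 were lower, 2 were higher and 4 were not called, with a median log2FC of 0.05. Plasminogen itself (PLG) had no read, nor did LRP2 and A2M. LRP1, the endocytic receptor that clears complexes of uPA and tPA with their inhibitors, rose from a control mean of 13.3 ± 0.742 CPM (SD, n = 3) to 23.1 ± 0.717 CPM (SD, n = 3) after knockdown, with log2FC = 0.79 ± 0.075 (SE) and an edgeR adjusted p-value of 3.4e-08. MRC2, a collagen receptor associated with uPAR, rose by a log2FC of 0.24 (adjusted p-value 8.9e-04). VLDLR, another clearance receptor, fell by 0.52 on the log2 scale (adjusted p-value 8.4e-04). The plasminogen-binding proteins ENO1 and ANXA2 fell by 0.24 and 0.21 on the log2 scale (adjusted p-values 3.7e-08 and 3.2e-06). Both have processed pseudogenes, and reads with several alignments were counted on no gene, so these values are less certain. The dedicated plasminogen receptor PLGRKT, listed under an older symbol, was at 19.5 CPM in control cells and 21.4 CPM in PELP1-KD cells (adjusted p-value 0.13). S100A10, also in this list, did not fall with ANXA2 and was not called (log2FC 0.072, edgeR adjusted p-value 0.087). With library totals alone, 4 genes of this list were called higher in place of 2.

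Of 10 genes for proteases that activate the proform of uPA or of the related growth factor HGF, HGF itself and their Kunitz-type inhibitors, 5 were tested, 2 were lower and 2 were higher, and HGF and TMPRSS4 had no read. The Kunitz inhibitors moved in opposite directions. SPINT1 rose from a control mean of 3.78 ± 0.158 CPM (SD, n = 3) to 10.3 ± 0.946 CPM (SD, n = 3) after knockdown, with log2FC = 1.43 ± 0.12 (SE) and an edgeR adjusted p-value of 4.4e-09. SPINT2 fell from a control mean of 70.7 ± 4.66 CPM (SD, n = 3) to 38.5 ± 1.78 CPM (SD, n = 3) after knockdown, with log2FC = -0.88 ± 0.057 (SE) and an edgeR adjusted p-value of 1.1e-10. F12, coagulation factor XII, rose by a log2FC of 0.73 (adjusted p-value 3.3e-05), and CTSB, the lysosomal protease cathepsin B, fell by 0.11 on the log2 scale (adjusted p-value 0.0071). CTSB lost its call with library totals alone (adjusted p-value 0.11) and without PELP1-KD replicate 1 (0.061). ST14, which encodes matriptase, had 3 to 16 reads and was not called, except without control replicate 3 (log2FC 1.32, adjusted p-value 0.026). Over the 5 tested genes the median log2FC was 0.73, against 0.0014 for all tested genes. This median is the value of F12 alone, and the 5 genes did not move together.

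Both tested paralogs of HTRA1 were called higher in PELP1-KD cells, as were 22.7% of all tested genes. HTRA2, a mitochondrial protease, rose with log2FC = 0.25 ± 0.05 (SE) and an edgeR adjusted p-value of 3.7e-04. HTRA3, a secreted protease like HTRA1, rose from a control mean of 6.17 ± 0.585 CPM (SD, n = 3) to 9.78 ± 1.04 CPM (SD, n = 3) after knockdown, with log2FC = 0.67 ± 0.11 (SE) and an edgeR adjusted p-value of 6.5e-05. HTRA4 had 1 read in all 6 replicates together. Per exon length, HTRA3 was at 1.86 RPKM in control cells, below HTRA1 at 3.67 RPKM, and at 2.95 RPKM in PELP1-KD cells, above HTRA1 at 0.897 RPKM.

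Of the 33 other serpins in the count tables, 11 had no read and 10 were tested, of which 3 were lower, 2 were higher and 5 were not called, with a median log2FC of -0.0065. The serpins without a read were SERPINA4, SERPINA7, SERPINA10 to SERPINA13, SERPINB3, SERPINB11 to SERPINB13 and SERPINE3. SERPINB8 fell by 0.69 on the log2 scale (adjusted p-value 1.8e-08, edgeR), SERPINI1, which encodes the tPA inhibitor neuroserpin, by 0.53 (adjusted p-value 0.036), and SERPINA1 by 0.35 (adjusted p-value 4.9e-06). SERPINH1, a collagen chaperone of the endoplasmic reticulum, and SERPINB6 rose by log2FC values of 0.17 and 0.10 (adjusted p-values 4.6e-04 and 0.039). SERPINI1, with 27 to 51 reads, lost its call with DESeq2 (adjusted p-value 0.14), with library totals alone (0.054), and without control replicate 2 (0.074), control replicate 3 (0.095), PELP1-KD replicate 1 (0.073) or PELP1-KD replicate 2 (0.15). SERPINB6 lost its call with DESeq2 (adjusted p-value 0.061), without the filter on low counts (0.051), and without control replicate 2 (0.10), control replicate 3 (0.13), PELP1-KD replicate 1 (0.093) or PELP1-KD replicate 3 (0.16).

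**Figure D4:**
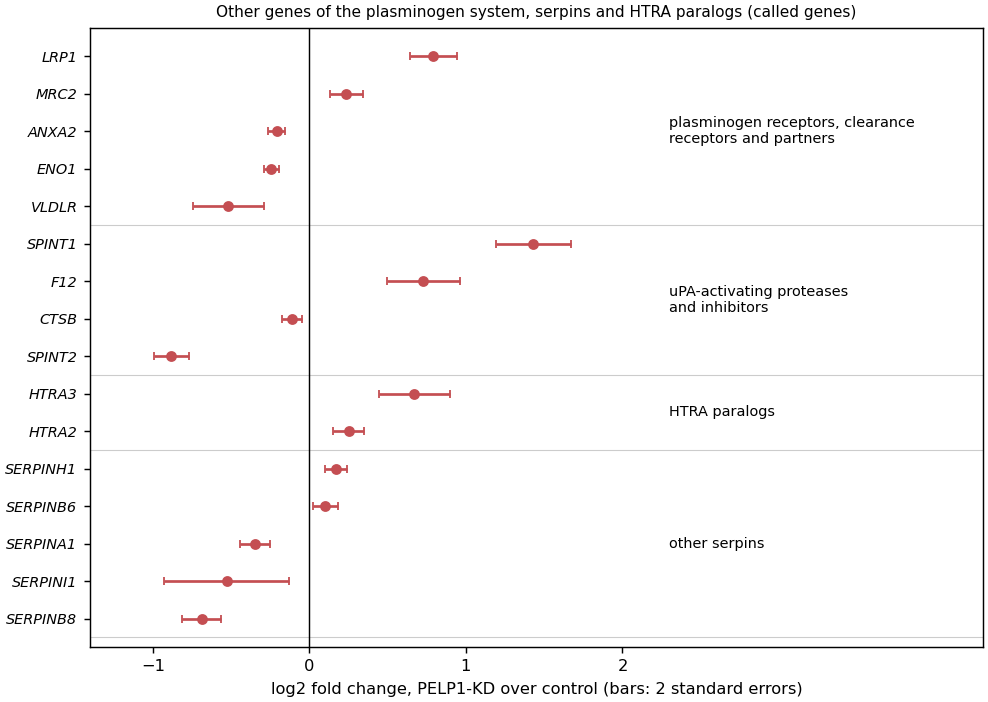
The log2 fold change (horizontal axis, PELP1-KD over control, bars of 2 standard errors) of each gene called in the 4 lists, with an adjusted p-value below 0.05. SPINT1 (1.43) and LRP1 (0.79) lie farthest to the right, and SPINT2 (-0.88) and SERPINB8 (-0.69) farthest to the left.

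For each of the 6 genes, the tested genes with the most similar pattern over the 6 samples were found by the root mean square difference of log2 CPM, each gene taken relative to its own control mean, among 9419 genes with a mean of at least 10 CPM (9420 for HTRA1, itself below that mean). For HTRA1 these were MMP1, the interstitial collagenase, at a difference of 0.13, IGFBP1 at 0.19 and LPAR1 at 0.26. Their log2FC values were -2.08, -1.89 and -2.32, which lie near that of HTRA1 because the genes were chosen for likeness to it. The limit of 10 CPM is on the mean over both groups, so a gene can pass it through its control level. IGFBP1 and LPAR1 had means of 11.0 and 16.4 CPM. For SERPINE2 the nearest genes were LPXN, UCHL5 and PODXL at 0.027, 0.037 and 0.047. PLAT was closest to RNF24, WASF2 and RETSAT. PLAU was closest to PLOD3, SLC2A1 and HNRNPM, SERPINB2 to PJA1, LAMB1 and DDAH1, and PLAUR to LASP1, ASXL1 and PRPF8. Many genes lay within a difference of 0.1 of these: 1651 for PLAU, 2537 for SERPINB2 and 3417 for PLAUR. There were 647 such genes for PLAT, 38 for SERPINE2 and 0 for HTRA1. Where the number is large, the 3 genes named hardly stand out from the others. The difference depends on the size of the change and on the noise of each gene, so its values do not compare the 6 genes with each other.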

How the data were processed

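The authors sequenced 50-base single reads from stranded TruSeq mRNA libraries of 3 control and 3 PELP1-KD replicates and deposited raw read counts per gene symbol. The submitters' processing notes name bcl2fastq, TopHat2, SAMtools, HTSeq and build hg19. Versions, gene annotation and strand setting are not given in the sources used here. Reads with several alignments, between 32.5% and 32.9% of each file, and ambiguous reads, between 0.657% and 0.688%, were on no gene and were left out of library sizes, as were reads outside genes, between 7.64% and 8.19%. The floor of detection covers counting error only, while SDs and standard errors include the spread between replicates.

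From the counts, genes passing filterByExpr (minimum 10) were scaled by TMM and tested with the quasi-likelihood test of edgeR 4.0.16 in R 4.3.3, with Benjamini-Hochberg adjustment over all tested genes. The standard error (SE) was taken as log2FC over the root of the F statistic, and log2 CPM used a prior count of 2. The code of the test was checked on simulated counts, drawn independently with the same spread for every gene. That check does not bear on whether the replicates of these samples are independent. Exon lengths and positions came from GENCODE release 29 on GRCh38 (21466 symbols, 92.4%, had a length), whereas the counts were made on hg19. The lengths gave the RPKM values, and the positions only locate the genes. Promoter sequences are from RefSeq, GRCh38.p14. The study's own calls used DESeq2, run here (version 1.42.0) as an alternative, along with limma 3.58.1 and the other settings under the closing section.

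Members, lists and the rule for named genes (up to 4 called genes a list and direction, list genes without reads, and for each member the 3 genes of smallest root mean square difference) were chosen with earlier results of these data known, and the flanking genes were looked up after the values were seen. One gene of the serpin list is included in its counts but is not reported here.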

Additional observations from a re-analysis of the deposited data

How the results depend on the processing

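The tests of the 6 genes and of PELP1, the counts of called genes over the table and the lists, and 34 other genes named singly were recomputed under 13 alternatives (12 for ST14 and VWF). The permutation tests, likeness and ratios were not. HTRA1, SERPINE2, PLAT, PLAU and SERPINB2 kept their direction and their call in all of them, and with the replicate number as a replicate block 5 of the 6 genes were called, with 3335 genes lower and 3140 higher over the whole table. The log2FC of PLAU was between -0.26 and -0.18 over all alternatives, that of PLAT between -0.43 and -0.36, and that of SERPINB2 between 0.10 and 0.17. PLAUR ranged from -0.10 to -0.064 when a replicate was dropped, and was called only without PELP1-KD replicate 2 (log2FC -0.10, edgeR adjusted p-value 0.043). Same-numbered control and PELP1-KD replicates did not deviate together (correlations 0.039, 0.065 and -0.078), so the numbers were not taken to pair the samples, and the replicate block gave PLAUR a log2FC of -0.079. With library totals alone, which raise the median log2FC of all tested genes from 0.0014 to 0.051, 4 genes of the plasminogen partner list were higher and 1 gene of the uPA-activating protease list was lower. With DESeq2, 1 of the other serpins was higher and 2 were lower. Dropping a replicate gave 1 to 2 other serpins higher and 2 to 3 lower, and 1 to 2 uPA-activating proteases lower and 2 to 3 higher. Of the 34 genes, 24 kept direction and call throughout, and 10 did not: SERPINI1, SERPINB6, CTSB, VCL and SMG9 lost their call, and PLGRKT, CAMK2G, MRPL44 and ST14 gained one in at least 1 alternative. AP3M2, not called, turned from 0.0045 to -0.034 without PELP1-KD replicate 1. The cause of these shifts was not tested. The RPKM levels moved with the gene length used, and the longest transcript of each gene gave 84.1 RPKM for PLAUR in control cells against 30.4 with all exons. Depth limits HTRA1 most, at 39 to 52 reads in PELP1-KD replicates.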
